A study of Mus musculus with 32 samples.

Results

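The 8 genes Hnf4a, Cebpa, Foxa1, Foxa2, Foxa3, Onecut1, Prox1 and Nr5a2 encode transcription factors that are enriched in the liver. Every probe, controls left out, whose gene name in the array files is one of these symbols was taken, which gave 11 probes of 55681 on the array and 8 genes of 21691 that could be tested. Onecut1, Foxa2 and Nr5a2 had a pair of probes each, and the other 5 genes had 1 probe. All 8 genes were well above background on all 32 arrays at their brighter probe.

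These factors bind one another's promoters and enhancers and together hold hepatocytes in their differentiated state. The forkhead factors Foxa1, Foxa2 and Foxa3 open chromatin at liver enhancers, Onecut1 acts upstream of several of the others during liver and bile duct development, and Hnf4a, a nuclear receptor, drives genes of lipoprotein secretion, drug metabolism and blood coagulation. Cebpa, a leucine zipper factor, drives urea cycle and gluconeogenic genes, Nr5a2 is a nuclear receptor of bile acid and cholesterol genes, and Prox1 is a homeodomain factor that can act as a corepressor of Hnf4a and Nr5a2.

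The study measured whole livers of male C57/BL6 mice on 32 one-colour Agilent arrays, 1 liver per array, in 8 groups of 4. The mice ate a standard diet or, to induce steatosis and inflammation, a diet lacking methionine and choline (MCD) for 3 weeks. In 4 of the groups the mice received a dual agonist of the GLP-1 and glucagon receptors (GLP1R/GCGR) at 4.4 mg/kg/day, given every 2 days. On standard diet the agonist was given for 2 weeks, and on MCD diet it followed the first week of the diet, while the length of standard diet in the agonist groups is not given in the sources used here.

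The 4 groups without surgery, called baseline here, were standard diet, MCD diet, standard diet with agonist and MCD diet with agonist. The other 4 groups had the same diets and treatments, lost 70% of the liver by partial hepatectomy (PH), continued on the same diet and treatment and were sampled 2 weeks later. The labels name no sham operation and no vehicle injection for any group, and they do not give the age of the mice.

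Between 44.4% and 69.7% of spots per array were well above background. The arrays came from 4 slides of 2 groups each, and all baseline slides were read on another scanner than the PH slides. The diet pairs at baseline and the agonist pairs after PH each shared a slide, whereas in every other comparison slide and group cannot be told apart. Hepatocyte markers were bright throughout, with 13 of 13 well above background on all arrays of every group. The deposited table of processed values does not match the arrays under the labels: 16 of its 32 columns matched arrays of another group best, with MCD diet exchanged for standard diet with agonist both at baseline and after PH. The values below follow the arrays, whose own file names carry the group code of the labels in 32 of 32 cases. Every comparison by diet or agonist below, counts of gene lists and cell markers included, rests on these names. So do the single PH comparisons on MCD diet without agonist and on standard diet with agonist, which the exchanged naming would swap. The test of whether the diet effect differed after PH rests on them as well. Values under the exchanged naming are given for the factors called by diet on average or at baseline without agonist, for Hnf4aos and for Afp, and not for the lists and markers.

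Stretches just upstream of transcription start sites are shown for Hnf4a, Foxa2 and Foxa1, where a letter pattern of Onecut1 or of the Foxa factors, the genes that differed by diet, was found. Sequences are from RefSeq (GRCm38.p6, 250 bases before the start site, on the strand of the gene, 5′ to 3′), and capitals mark a match. The patterns searched on both strands were ATTGAT for Onecut1, TGTTTAC for the Foxa factors, CAAAGNNCA for Hnf4a and TTGCNNAA for Cebpa. CAAGGTCA for Nr5a2 and GTTAAT for the Hnf1 factors were searched too. Among 32851 promoters of that length, 6.72% held ATTGAT, 3.17% held TGTTTAC, 9.56% held TTGCNNAA and 6.43% held GTTAAT. The first start site of Hnf4a (chr2:163506607-163506856, plus strand) had the Onecut1 pattern on the other strand 59 to 54 bases upstream.
Hnf4a, start site 1: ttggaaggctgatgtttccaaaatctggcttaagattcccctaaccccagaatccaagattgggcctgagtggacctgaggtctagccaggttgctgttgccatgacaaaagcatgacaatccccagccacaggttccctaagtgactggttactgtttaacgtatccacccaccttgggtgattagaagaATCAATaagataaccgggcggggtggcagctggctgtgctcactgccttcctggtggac
Foxa2 had the Onecut1 pattern 213 to 208 bases before its first start site (chr2:148046970-148047219, minus strand), and Foxa1 had the Foxa pattern 141 to 135 bases before its start site (chr12:57546112-57546361, minus strand).
Foxa2, start site 1: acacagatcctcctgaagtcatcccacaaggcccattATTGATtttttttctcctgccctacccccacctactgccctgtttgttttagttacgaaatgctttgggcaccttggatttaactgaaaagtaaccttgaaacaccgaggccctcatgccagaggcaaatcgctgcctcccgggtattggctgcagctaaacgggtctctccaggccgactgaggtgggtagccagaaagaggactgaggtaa
Foxa1, start site 1: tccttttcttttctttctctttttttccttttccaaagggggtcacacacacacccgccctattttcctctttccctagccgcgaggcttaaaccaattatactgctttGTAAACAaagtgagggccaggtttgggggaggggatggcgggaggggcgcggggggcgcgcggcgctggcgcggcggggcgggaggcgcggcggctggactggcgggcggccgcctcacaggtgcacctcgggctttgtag
Nr5a2, whose sequence is not shown, had the Cebpa pattern 243 to 236 bases before its second start site. The Hnf1 pattern lay 81 to 76 and 74 to 69 bases before the second start site of Hnf4a. It also lay 176 to 171 bases before the third start site of Foxa2 and 236 to 231 bases before the first of Nr5a2. None of these patterns was found in these windows of Cebpa, Foxa3, Onecut1 and Prox1, which says only that the letters are not there.

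Levels are log2 processed signal minus the 75th percentile of the array, so that a value of 0 lies at that percentile, and they are compared within a probe only. With group means placed in order, every group overlapped its neighbour for all 8 genes. For Onecut1, Foxa1 and Foxa3 the 4 standard diet groups were the 4 highest means. Foxa2 ran from the baseline groups (4.59, 4.30, 3.88 and 3.59) to the PH groups (3.59, 3.27, 2.97 and 2.94). Hnf4a had group means from 6.79 to 7.84, with the highest in standard diet with agonist. Cebpa was highest in standard diet (5.07 ± 0.58, SD, n = 4) and lowest in MCD diet (4.08 ± 0.16).

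**Figure D1:**
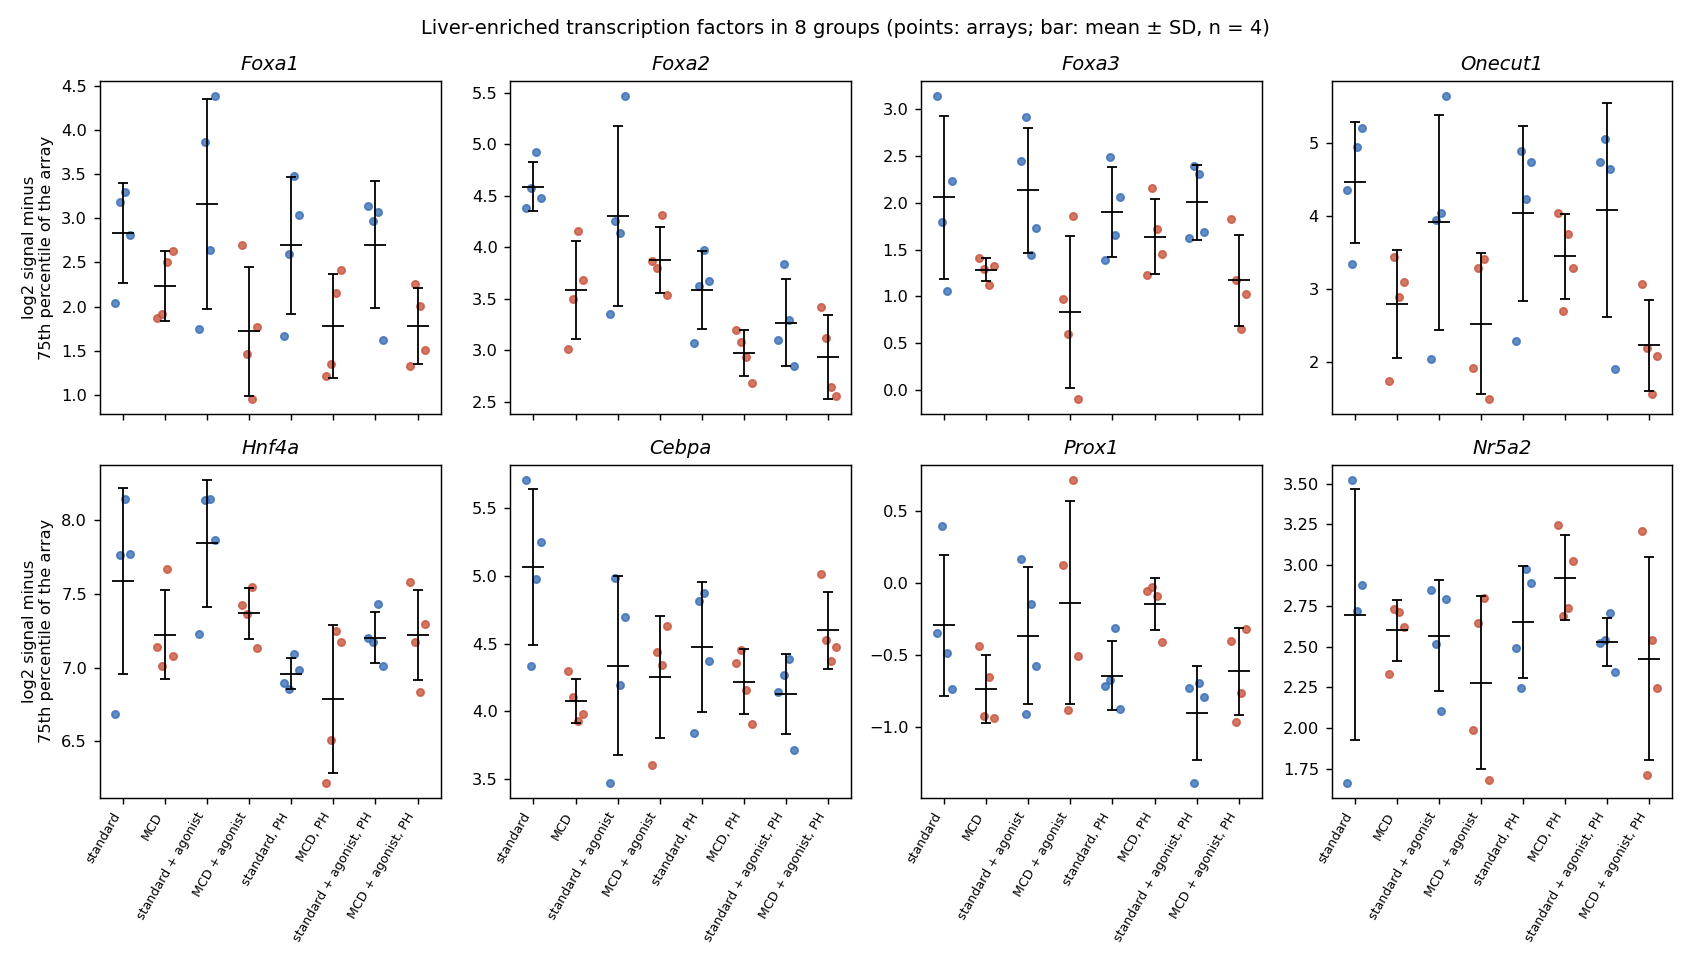
Log2 signal minus the 75th percentile of the array (y axis) for the 8 factors in the 8 groups (x axis), with a point per array and a bar for the mean ± SD, n = 4; blue is standard and red MCD diet. For Onecut1 the standard diet group means lie between 3.91 and 4.46 and the MCD group means between 2.22 and 3.44.

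Averaged over the 4 settings in which diet was compared (with and without agonist, at baseline and after PH), Onecut1 and all 3 Foxa genes were lower on MCD diet, while Hnf4a, Cebpa, Prox1 and Nr5a2 did not pass the test. This average, a contrast of the limma fit over all 32 arrays with Benjamini-Hochberg adjustment, was added after the single comparisons were seen. It called 4 of 8 factors down and none up, where 37.3% of all genes were called and 20% were called down. The median change of the 8 factors was -0.42 on the log2 scale and that of all genes -0.05. Scaling each array to its median moved the all-gene median to 0.06 and the calls from 3757 up and 4331 down to 4600 up and 2852 down, and the same 4 factors stayed called, from Foxa2 at -0.49 to Onecut1 at -1.27. In the pairs that shared a slide, which were those at baseline, the same 4 factors were lower (27% of all genes called, 14.9% down). In the pairs across slides, which were those after PH, only Foxa1 passed (23.4% called, 11.8% down). Slide sharing and surgery cannot be told apart in this split.

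The naming of the arrays decides what this result is called. In the deposited processed table with each column at the array it matches, the same 4 factors were lower on MCD diet, from -0.62 for Foxa2 to -1.14 for Onecut1. With the columns as deposited, the change of Onecut1 by diet was -0.61 with an adjusted p of 0.266 that of Foxa1 -0.08 (adjusted p 0.879), that of Foxa3 -0.12 (adjusted p 0.791) and that of Foxa2 0.03 (adjusted p 0.941), and the 4 factors were instead lower with agonist. Cebpa at baseline was then -0.57 by diet (adjusted p 0.36) and -1.34 by agonist on standard diet (adjusted p 0.0144).

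In the single diet comparisons fewer factors passed. Without agonist at baseline 2 of 8 were called, both down, against 26% of all genes called and 15.3% called down, and all 8 estimates were below 0 with a median of -0.69 against -0.13 for all genes. With scaling to the median of each array no factor passed there, the median of all genes moved from -0.13 to 0.24, and the calls over all genes moved from 2315 up and 3326 down to 4416 up and 1224 down. Quantile normalization gave 2806 up and 2524 down, and normexp background correction 2261 up and 5922 down. Relative to the median of all genes, Foxa2 stood at -0.87 and Cebpa at -0.86. With agonist at baseline 2 of 8 were called, both down, against 15.2% of all genes and 7.07% called down. After PH no factor was called, either without agonist (11.5% of all genes called) or with it (8.23%). At an unadjusted p under 0.05 there were 0 and 2 factors in those PH comparisons. The 2 factors with agonist were Onecut1 and Foxa3, at places 2629 and 4574 of 21691 genes ordered by unadjusted p. Many other genes therefore passed at that level too, and the count alone does not set the factors apart.

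**Figure D2:**
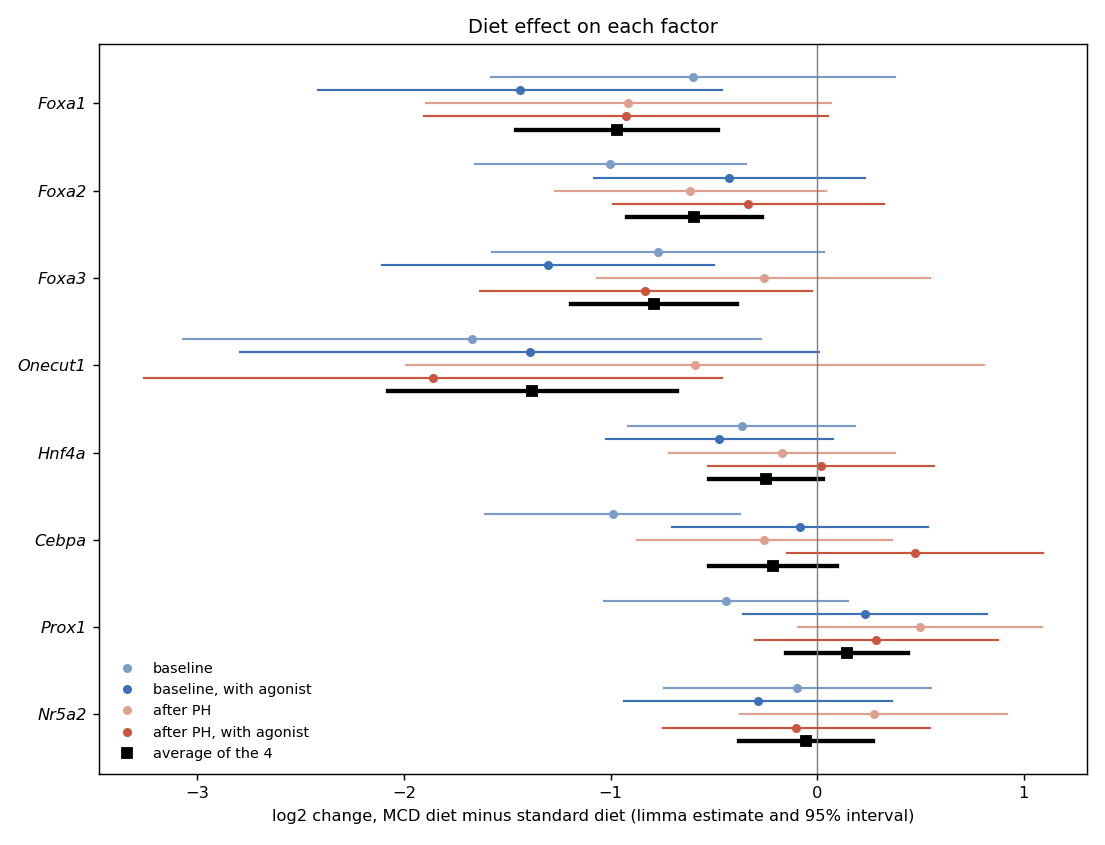
Log2 change on MCD diet against standard diet (x axis) for each factor (y axis), as the limma estimate with its 95% interval in each of the 4 settings and for their average (black). The 4 upper genes have averages from -1.38 to -0.60 with intervals that end below 0, and the intervals of the averages of the lower 4 genes hold 0.

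Onecut1, also called HNF6 (probe at chr9:74737402-74737461, mm9, plus strand), had the largest diet estimate of the 8 factors in the average. The arrays of standard diet at baseline read 4.36, 3.34, 4.94 and 5.20, and those of MCD diet 1.73, 3.43, 2.89 and 3.09. The lowest standard diet array lay just below the highest MCD array, so the groups overlapped. The change was -1.67 ± 0.68 (SE, n = 4 per group), with a 95% interval from -3.07 to -0.27 and an adjusted p of 0.0693. With agonist after PH the standard diet arrays read 4.74, 5.05, 4.64 and 1.90 and the MCD arrays 3.07, 2.19, 1.56 and 2.07. Replicate 4 of the standard diet stood far below its 3 group mates and inside the MCD range. The change there was -1.86 ± 0.68 with an adjusted p of 0.0907, and without that array it was -2.59 with an adjusted p of 0.0116. The averaged change was -1.38 ± 0.34, a 2.6-fold lower level, with a 95% interval from -2.08 to -0.68 and an adjusted p of 0.00216. In the pairs on 1 slide it was -1.53 with an adjusted p of 0.0187, and across slides -1.23 with an adjusted p of 0.0656.

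The second probe of Onecut1 lies elsewhere in the gene on the same strand in the array annotation. It gave larger diet changes at baseline and on average. Its arrays on standard diet at baseline read -0.22, -2.60, 1.23 and 1.48, against -4.03, -2.11, -3.21 and -2.72 on MCD diet. Replicate 2 of the standard diet fell within the MCD range at this probe too. In the limma fit over all probes this probe changed by -2.99 ± 0.76 at baseline (adjusted p 0.00532), by -2.53 with agonist at baseline (adjusted p 0.0238) and by -1.95 ± 0.38 on average (adjusted p 0.000202). After PH it changed by -0.63 without agonist (adjusted p 0.661) and by -1.64 with it (adjusted p 0.196). The brighter probe gave -0.59 and -1.86 there. On MCD diet with agonist at baseline the second probe was well above background on 3 of 4 arrays. The probes of Onecut1 ran together over the 32 arrays (Pearson r 0.901, a description over arrays that share groups and slides).

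**Figure D3:**
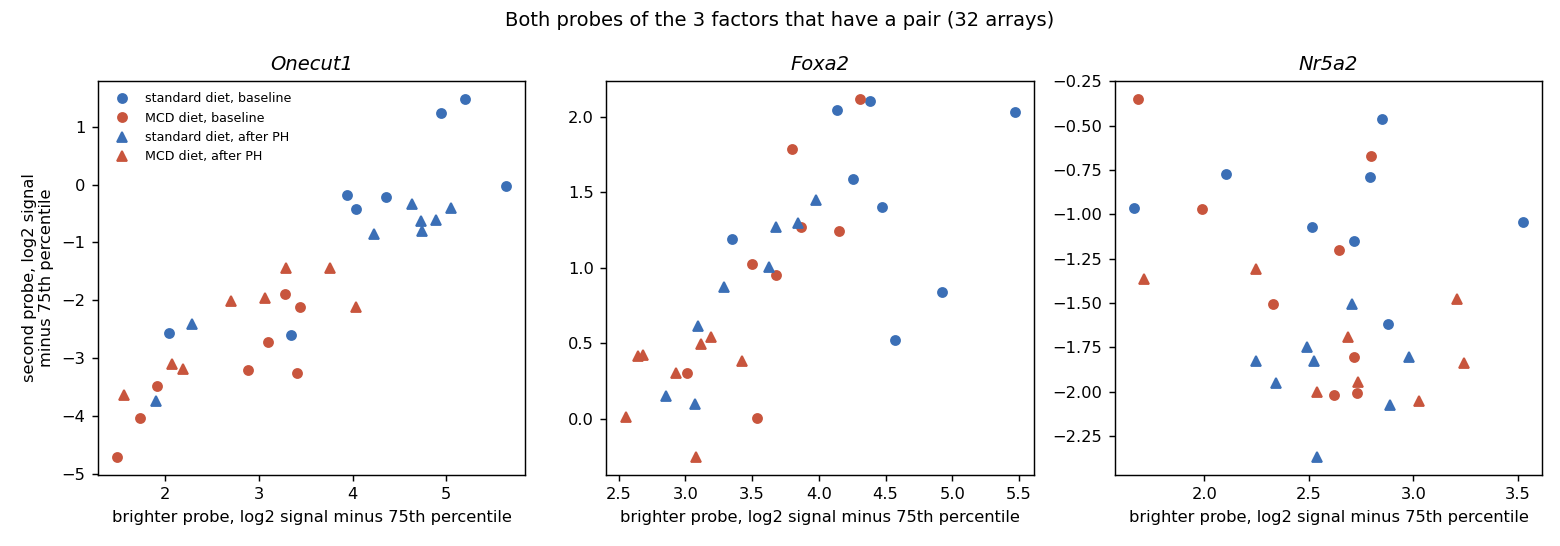
The brighter probe (x axis) against the second probe (y axis) of Onecut1, Foxa2 and Nr5a2, both as log2 signal minus the 75th percentile, with 1 point per array (blue standard diet, red MCD diet, circles baseline, triangles after PH). Pearson r over the 32 arrays is 0.901 for Onecut1, 0.722 for Foxa2 and -0.281 for Nr5a2.

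Foxa1 (probe at chr12:58641764-58641823, mm9, minus strand), which with Foxa2 is needed for liver specification in the mouse embryo, was called in 1 single diet comparison. With agonist at baseline the standard diet arrays read 1.75, 3.86, 2.64 and 4.38 and the MCD arrays 2.70, 1.47, 0.95 and 1.77. The groups overlapped, with replicate 1 low on standard diet and high on MCD diet. The change was -1.44 ± 0.48 with an adjusted p of 0.0393. The estimates in the other 3 settings were -0.60, -0.91 and -0.92, none past the threshold. The averaged change was -0.97 ± 0.24 (95% interval from -1.46 to -0.48, adjusted p 0.00205), with -1.02 in the pairs on 1 slide and -0.92 across slides.

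Foxa3, another forkhead factor of this family, was called in the same comparison. Its standard diet arrays with agonist read 2.44, 2.92, 1.45 and 1.73 and its MCD arrays with agonist 0.97, 0.60, 1.85 and -0.10. Only replicate 3 of the MCD group reached into the standard diet range. The change was -1.30 ± 0.39 with an adjusted p of 0.0228. With a fit of these groups alone the adjusted p was 0.112 for Foxa3 and 0.155 for Foxa1. Leaving out standard diet replicate 2, or MCD replicate 2 or 4, ended both calls; so did standard diet replicate 1 for Foxa3 (-1.20), and standard diet replicate 4 (-1.03) or MCD replicate 3 (-1.18) for Foxa1. The averaged change was -0.79 ± 0.20 (95% interval from -1.19 to -0.39, adjusted p 0.00218), with -1.04 in the pairs on 1 slide and -0.55 across slides (adjusted p 0.159).

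Foxa2 (probe at chr2:147868669-147868728, mm9, minus strand), a regulator of fasting lipid and bile acid genes, was called down by MCD diet at baseline. The standard diet arrays read 4.38, 4.57, 4.92 and 4.47 and the MCD arrays 3.01, 3.50, 4.15 and 3.68. The groups did not overlap, which held for 2 of 8 factors and for 27.9% of all genes in this comparison. The change was -1.003 ± 0.32 with an adjusted p of 0.0216, and it missed the threshold without standard diet replicate 3 (-0.89), without MCD replicate 1 (-0.81) and with normexp (-0.52). The second probe of Foxa2 changed by -0.34 there, with a 95% interval from -1.11 to 0.44. The averaged change was -0.60 ± 0.16 at the brighter probe (95% interval from -0.92 to -0.27, adjusted p 0.00439) and -0.47 ± 0.19 at the second probe (adjusted p 0.0533).

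Hnf4a (probe at chr2:163398548-163398607, mm9, plus strand) did not pass the test in any single diet comparison, with estimates of -0.37, -0.47, -0.17 and 0.02. On standard diet at baseline its arrays read 6.68, 7.77, 8.14 and 7.77, and on MCD diet 7.14, 7.01, 7.67 and 7.08. Replicate 1 of the standard diet lay below every MCD array while the other 3 lay above them all. The averaged change was -0.25 with a 95% interval from -0.52 to 0.03 (adjusted p 0.149). Without standard diet replicate 1 it was -0.32 with an adjusted p of 0.0328. Differences in diet change between Hnf4a and the Foxa genes were not tested.

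Next to Hnf4a, the antisense transcript Hnf4aos fell on MCD diet in all 4 single comparisons. RefSeq places Hnf4aos at chr2:163493804-163541721 (GRCm38.p6, on the strand opposite to Hnf4a). Read on its own strand, it begins 5434 bases upstream of the second start site of Hnf4a, runs away from that site and spans the first. On standard diet at baseline its arrays read 2.52, 3.51, 3.29 and 2.81, and on MCD diet -3.84, -2.67, -1.33 and -4.97, the last not well above background. The groups stood far apart. The changes were -6.24 ± 0.73 at baseline (adjusted p 1.41e-06), -3.19 with agonist (adjusted p 0.00341), -5.64 after PH (adjusted p 7.56e-06) and -4.54 with agonist after PH (adjusted p 0.000228). On MCD diet after PH only 2 of 4 arrays were well above background. Afp, the fetal serum protein that Foxa factors can activate, rose in the same 4 comparisons by 4.34, 3.01, 2.82 and 2.95. It was well above background on 3 of 4 arrays in each of the standard diet groups at baseline, so the first pair of values compares with groups that reach background. With the groups exchanged as in the deposited table, the baseline diet change without agonist would be the difference between the arrays of standard diet with and without agonist, -1.38 for Hnf4aos and 0.34 for Afp, neither past the threshold, and the -6.24 and 4.34 would be agonist changes.

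**Figure D4:**
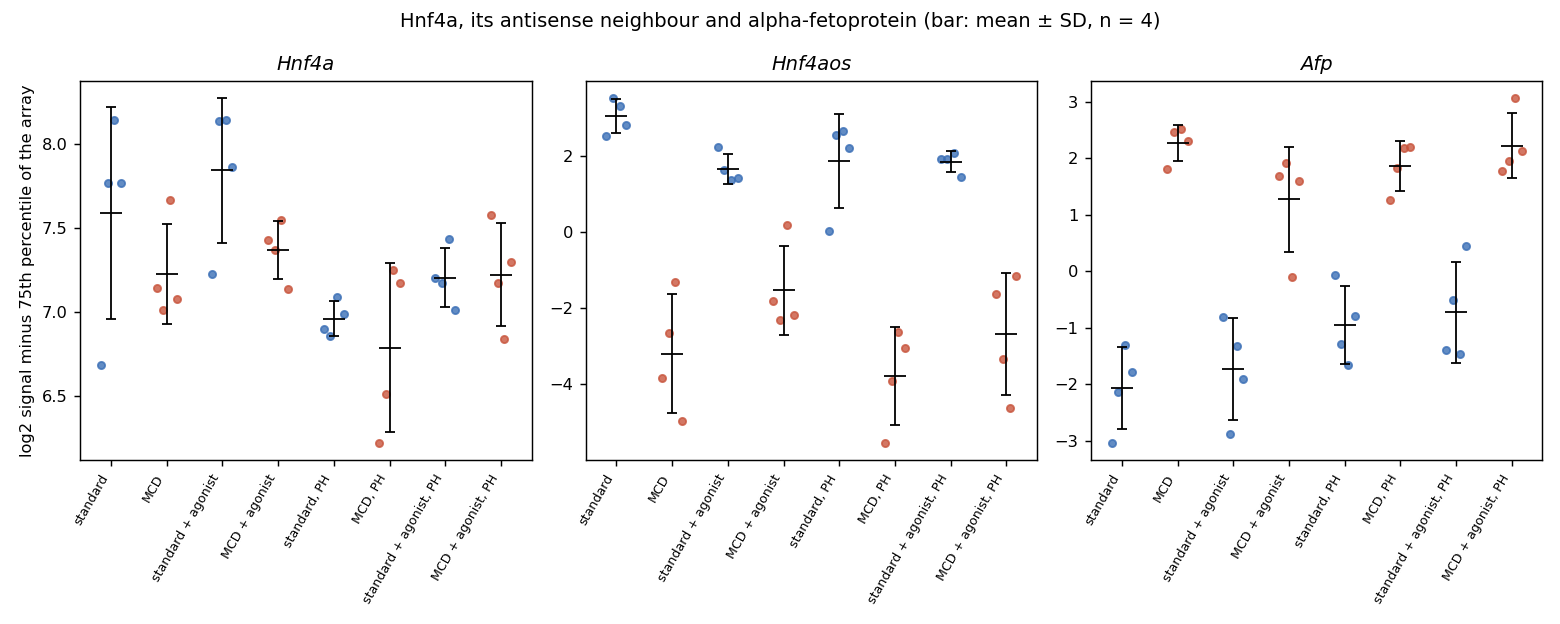
Log2 signal minus the 75th percentile (y axis) of Hnf4a, Hnf4aos and Afp in the 8 groups (x axis), with a point per array and a bar for the mean ± SD, n = 4. Hnf4aos group means lie between 1.65 and 3.03 on standard diet and between -3.79 and -1.54 on MCD diet, whereas those of Hnf4a lie between 6.79 and 7.84.

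Cebpa (probe at chr7:35906517-35906576, mm9, plus strand) was called down by MCD diet at baseline without agonist. The standard diet arrays read 5.71, 4.33, 4.98 and 5.25 and the MCD arrays 4.29, 4.10, 3.93 and 3.98. The groups did not overlap, although replicate 2 of the standard diet came close to the highest MCD array. The change was -0.99 ± 0.30, a 1.99-fold lower level, with an adjusted p of 0.0163, and it missed the threshold without standard diet replicate 1 (-0.78, adjusted p 0.076). In the other 3 settings the estimates were -0.08, -0.26 and 0.47, none past the threshold, and the averaged change was -0.22 with a 95% interval from -0.52 to 0.09.

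Nr5a2 and Prox1 passed no diet comparison at the brighter probe. The averaged change of Nr5a2 was -0.05 (95% interval from -0.38 to 0.27) and that of Prox1 0.14 (95% interval from -0.15 to 0.44). The second probe of Nr5a2 did not follow the first over the 32 arrays (r -0.281). At the second probe MCD diet at baseline changed by -0.64 ± 0.22 (adjusted p 0.0328), with standard diet arrays at -0.97, -1.04, -1.15 and -1.62 and MCD arrays at -1.50, -2.01, -1.80 and -2.02. Replicate 4 on standard diet overlapped the MCD arrays. Which probe follows the transcripts of Nr5a2 was not tested.

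At the brighter probes the dual agonist changed no factor past the threshold in any of its 4 single comparisons. The percentages of all genes called were 6.52% on standard diet and 13.3% on MCD diet at baseline, and 0.00922% and 0.406% after PH, so that after PH hardly any gene passed. At an unadjusted p under 0.05 there were 1 and 1 factors at baseline and 0 and 0 after PH. Those at baseline were Cebpa on standard diet and Prox1 on MCD diet. They stood at places 3334 and 6195 of 21691 genes ordered by unadjusted p, so many other genes passed at that level too. Cebpa on standard diet at baseline was -0.73 (95% interval from -1.35 to -0.11, adjusted p 0.145) and Prox1 on MCD diet 0.60 (95% interval from 0.01 to 1.19, adjusted p 0.162). The average called 0 of 8 factors in the pairs on 1 slide, all after PH (0.0461% of all genes called). It also called 0 of 8 factors in the pairs across slides, all at baseline (7.81%). Averaged over the 4 settings, 0 of 8 factors passed at the brighter probes, against 3.64% of all genes, and 0 at an unadjusted p under 0.05. Hnf4a was at 0.27 (95% interval from -0.01 to 0.54) and Onecut1 at -0.50 (95% interval from -1.20 to 0.20). The second probe of Nr5a2 rose with agonist on MCD diet at baseline, by 1.03 ± 0.22 with an adjusted p of 0.00375, where the brighter probe gave -0.32. Its arrays went from -1.50, -2.01, -1.80 and -2.02 to -0.97, -1.20, -0.67 and -0.35, without overlap. In the agonist average this second probe changed by 0.44 ± 0.11 with an adjusted p of 0.0274. Tests of whether the diet effect differed with agonist called 0 of 8 factors at baseline (11.1% of all genes) and 0 of 8 after PH (0.00461%), and at an unadjusted p under 0.05 they gave 1 and 0. The 1 factor at baseline was Cebpa, at place 5521 of 21691 genes ordered by unadjusted p.

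In the average over the 4 settings, Foxa2 was lower after PH than at baseline, and Hnf4a was lower too, except with normexp or quantile processing. Slide, scanner and the length of diet and treatment changed with surgery, and no sham operation is named. PH cannot be told apart from these. Foxa2 on standard diet read 4.38, 4.57, 4.92 and 4.47 at baseline and 3.07, 3.62, 3.98 and 3.68 after PH, without overlap. The change was -1.002 ± 0.32 with an adjusted p of 0.036 (1 of 8 factors called, 13.8% of all genes and 7.45% down). The second probe of Foxa2 changed by -0.26 there, with a 95% interval from -1.03 to 0.51. Groups without overlap were found for 1 of 8 factors and 17.5% of all genes. With agonist on standard diet the change of Foxa2 was -1.03 with an adjusted p of 0.0468 (1 of 8 called, 7.3% of all genes and 4.39% down). Its second probe gave -0.98 there, with an adjusted p of 0.111. Both single calls were lost with median scaling, with quantile normalization and with a fit of the compared groups alone, and Foxa2 on standard diet was -0.24 with normexp. On MCD diet Foxa2 changed by -0.61 (95% interval from -1.27 to 0.04; 0 of 8 called, 9.46% of all genes), and with agonist by -0.94 with an adjusted p of 0.058 (0 of 8 called, 10% of all genes). At an unadjusted p under 0.05 there was 1 factor in each of these MCD comparisons. Without agonist it was Prox1, at place 5163 of 21691 genes ordered by unadjusted p, and with agonist Foxa2, at place 2432. Many other genes passed at that level too.

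Averaged over the 4 settings, PH called 2 of 8 factors, both down, against 34.5% of all genes called and 19% called down. Over all genes 3354 were up and 4119 down, which became 2926 up and 7739 down with normexp and 3787 up and 2886 down with quantile normalization. Foxa2 changed by -0.90 ± 0.16 with an adjusted p of 0.000117, and its second probe by -0.71 ± 0.19 with an adjusted p of 0.00502. Hnf4a changed by -0.46 ± 0.13 with an adjusted p of 0.00879, but with normexp background correction it was 0.07 and with quantile normalization -0.18 (adjusted p 0.291). Onecut1 (0.03, 95% interval from -0.67 to 0.73), Foxa3 (0.10, from -0.30 to 0.50) and Foxa1 (-0.25, from -0.74 to 0.24) did not pass. At the second probe of Nr5a2 the averaged change was -0.65 ± 0.11 with an adjusted p of 6.64e-05, against 0.10 at the brighter probe. In the single PH comparisons this second probe changed by -0.67 on standard diet (adjusted p 0.0418) and by -1.14 with agonist (adjusted p 0.00286). On MCD diet it changed by -0.05 (adjusted p 0.926) and with agonist by -0.74 (adjusted p 0.0321). The test of whether the diet effect differed after PH called 0 of 8 factors (2.6% of all genes) and gave 1 at an unadjusted p under 0.05, Prox1, at 0.94 with an adjusted p of 0.195. Prox1 stood there at place 3168 of 21691 genes ordered by unadjusted p.

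Some markers of the cells in the liver were called by diet, and their counts are to be read against the shares of all genes. The diet average called 17.3% of all genes up and 20% down, and the PH average 15.5% up and 19% down. The single diet comparisons called 26% of all genes without and 15.2% with agonist at baseline. After PH these shares were 11.5% and 8.23%. In bulk tissue, fewer cells of a type and less RNA per cell cannot be told apart. Of 13 hepatocyte markers, 5 were called down and none up in the diet average. Their summed level at baseline, as a multiple of the 75th percentile, ran from 8570 to 11100 on standard diet and from 5820 to 6790 on MCD diet, but from 7020 to 11200 and from 7100 to 10300 with agonist, where Foxa1 and Foxa3 were called. Of 9 tested cholangiocyte markers, 2 were down in the diet average, Krt19 by -1.43 and Sox9 by -0.54, a count near the share of all genes. Their summed level at baseline was 68.9 to 84 on standard and 38 to 72.8 on MCD diet, and 62.9 to 118 and 55.3 to 92 with agonist. Of 7 recruited macrophage markers, 5 rose in the diet average, with summed levels at baseline of 4.36 to 8.1 on standard and 24.6 to 60.1 on MCD diet. With agonist at baseline the levels were 15.2 to 20 and 11.4 to 32.4 and 1 of 7 rose, and after PH 0 of 7 passed in either diet comparison. Kupffer cell markers went opposite ways at baseline, with 3 of 6 up without agonist (median 1.21) and 4 of 6 down with it (median -1.59), where Foxa1 and Foxa3 were called. Of 6 T and B cell markers 2 fell in the diet average. Their summed level at baseline without agonist was 67.8 to 147 on standard and 14.4 to 17.8 on MCD diet. With agonist at baseline it was 25.5 to 81.1 and 22.9 to 40.7, and the diets overlapped after PH too. Of 10 stellate cell markers, 5 rose and 1 fell. Of 7 tested pancreatic acinar markers, 3 rose in the diet average and 4 by diet with agonist after PH, while 1 fell at baseline without agonist. The summed level of endothelial markers at baseline was 58.8 to 75.3 on standard and 75.7 to 94.7 on MCD diet. With agonist it was 82.7 to 106 and 62.1 to 86.4. For 3 tested adipocyte markers it was 3.87 to 7.21 and 10.8 to 37.8, and 2.29 to 6.21 and 4.74 to 9.9 with agonist. In the PH average 5 of 7 neutrophil and 5 of 6 Kupffer cell markers rose and 4 of 13 hepatocyte markers fell. The part of these shifts in the changes of the factors was not tested.

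Other genes of the network were followed through lists of regulated genes and partners. Over all genes the diet average called 17.3% up and 20% down, and the counts of these lists are to be read against those shares. In the diet average, 8 of 36 other liver transcription factors rose and 9 fell, among them Bcl6 (-2.04), Stat5b (-0.75), Gata4 (-0.97) and Cux2 (2.39). Bcl6 and Cux2 are known for their sex-biased levels in mouse liver and Stat5b relays growth hormone signals. Of 20 genes that Hnf4a regulates, 3 rose and 9 fell. Ces2a, a carboxylesterase, changed by -2.77, Lipc, the hepatic lipase, by -1.72 and Otc, of the urea cycle, by -1.28, while the apolipoprotein Apoa4 rose by 2.90. The list median was -0.30, against -0.05 for all genes.

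Of 12 genes that Cebpa regulates, 2 rose and 5 fell, the latter including the urea cycle genes Otc, Asl (-0.67) and Ass1 (-0.42), with Gys2, the liver glycogen synthase, up by 0.81. Of 11 genes regulated by Foxa factors, 3 rose, led by Afp (3.28), and 1 fell, Alb (-0.30). The list median was 0.02. Of 9 genes that Onecut1 regulates, 2 fell, G6pc (-1.15), the last enzyme of glucose release, and Foxa2 itself. Of 10 Nr5a2-regulated genes, 1 rose, Abcg5 (0.70), and 4 fell, among them Nr0b2 (-0.95), also known as SHP, a repressor of Nr5a2 and Hnf4a activity. Of 7 tested fetal liver genes 3 rose, Afp, H19 (2.85) and Acsl4 (0.88). Of 11 coregulators 3 rose, with Ppargc1b at 1.53 and Crebbp at 1.22, and 2 fell.

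In the PH average, which called 15.5% of all genes up and 19% down, 13 of 36 other liver transcription factors fell and 1 rose. Nr1i2, the pregnane X receptor, was up by 0.96, and Mlxipl (-0.82), Stat5b (-0.47) and Cebpb (-0.49) were down. Of 20 Hnf4a-regulated genes 8 fell and none rose, with Apoa2 at -0.85. In the agonist average, which called 3.64% of all genes, 1 of 36 factors rose, Klf15 (0.49), and 1 fell, Nr2f1 (-0.42), while 2 of 20 Hnf4a-regulated genes rose, F9 (0.48) and Apoa4 (0.81).

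The factors differed in how closely they ran together over the 32 arrays, which share groups, slides and scanners, so the following are descriptions. The highest Pearson r were those of Foxa1 with Onecut1 (0.61), Hnf4a with Foxa2 (0.60), Foxa2 with Onecut1 (0.58) and Foxa1 with Foxa2 (0.57). Once the group means were taken out, these 4 pairs had 0.46, 0.36, 0.73 and 0.53 in the same order, and Cebpa with Onecut1, at 0.48 for levels, had 0.57. Prox1 had an r between -0.30 and 0.23 with the others.

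**Figure D5:**
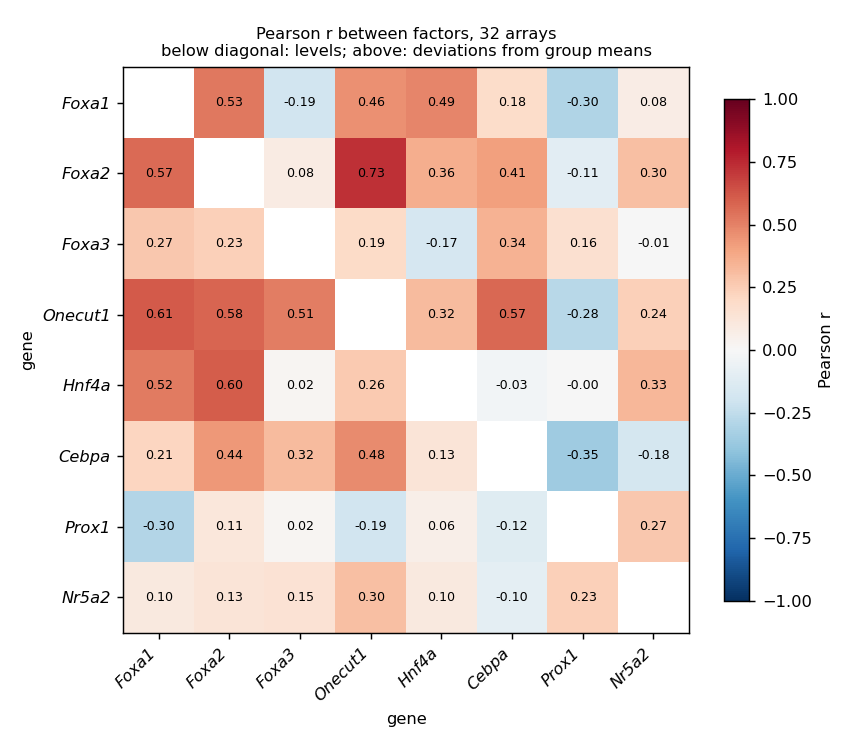
Pearson r between the factors over 32 arrays (both axes list the 8 genes), for levels below the diagonal and for deviations from group means above it, with colour from -1 to 1. Foxa2 and Onecut1 have 0.58 for levels and 0.73 for deviations.

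Among 13898 other named genes, the one most like each factor over the 32 arrays was Hectd2 for Hnf4a (Pearson r 0.848), Wdtc1 for Cebpa (0.784), Keg1 for Foxa1 (0.809), Ndufa3 for Foxa2 (0.856), Tmie for Foxa3 (0.756), Ccdc84 for Onecut1 (0.841), Synpo2l for Prox1 (0.734) and Gfra4 for Nr5a2 (0.669). Keg1 and Ccdc84 were also first by Spearman rank. The next for Foxa1 was Ugt2b37 (0.802), for Foxa2 Atp5e (0.846) and for Onecut1 Bcorl1 (0.794).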

How the data were processed

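RNA of 32 mouse livers was labelled with Cy3 and hybridised to 1-colour Agilent arrays, per the labels' protocols. The deposited scanner files hold, per the file headers, linear intensity values quantified with Feature Extraction 10.7.3.1, with background subtracted in the processed signal. The authors' deposited processed table holds log2 values, as judged from its range, with column medians of 6.53 to 6.55 at baseline and 7.05 to 7.06 after PH. Its centring is unknown. Its columns were set against the arrays by rank correlation (0.954 to 0.997 at the best array, and 0.868 to 0.939 at their own array for the 16 exchanged columns). It served as an alternative, not for PH contrasts. Other processing steps of the authors are not given in the sources used here.

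The 75th percentile of each array was subtracted from log2 processed signal. Spots marked as outliers (0.264%) were left out and spots of a probe averaged. Probes needed all 4 arrays of some group well above background (30118 probes), and a gene was read from its probe with the highest mean (21691 genes). One limma 3.58.1 fit (R 4.3.3) over the 8 groups gave each contrast, with Benjamini-Hochberg adjusted p under 0.05 as the threshold and 95% intervals. Data were simulated for MCD against standard diet at baseline over 21349 genes, of which 200 were changed. In these data 30% of 2-fold and 81% of 4-fold changes were recovered, with 11 false calls. The real comparison called 5641 of 21691 genes, and the adjustment depends on how many genes change. The rates are therefore not those of the real comparison. The number of arrays limits the precision.

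The members, gene lists and tests were chosen with earlier results of these data known. The genes named were the 8 factors, 3 most similar genes of each at most, up to 4 called genes of each list by smallest adjusted p, and fixed neighbours (Alb, Afp, Nr0b2, Cebpb, Hnf4aos). Some genes that this rule names are not reported here. Cell markers named were picked after their values were seen. Alternatives were normexp background correction, median scaling, quantile normalization, no filter, the mean of a gene's probes, outlier spots kept, a replicate block, fits of the compared groups alone, leaving out each array, the second probes, slide-sharing pairs and the deposited table.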

Additional observations from a re-analysis of the deposited data

Results flagged for a closer look

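In 64 combinations of factor and group, 4 arrays stood apart from the other 3 of their group by Dixon's test, which chance does in about 1 of 20 groups. On standard diet with agonist after PH, replicate 4 had 1.62 for Foxa1 (nearest array 2.97) and 1.90 for Onecut1 (nearest 4.64). In the same group replicate 2 had -1.39 for Prox1 (nearest -0.79). On MCD diet after PH, replicate 4 had -0.41 for Prox1 (nearest -0.09).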

How the results depend on the processing

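Over the other settings, 81 of 120 values of called factors kept direction and side of the threshold, 36 lost the call and 3 turned; with 1 array left out, 216 of 240 kept it and 24 lost it. Of values of factors that were not called, 23 of 1286 passed under another setting, 5 turned and passed, and 7 of 1680 passed with 1 array left out. The 4 calls of the diet average held with normexp, median scaling, quantile normalization, no filter, the mean of probes and outlier spots kept; leaving out arrays gave 4 to 5 called factors, Hnf4a being added without standard diet replicate 1. Pairs across slides, all after PH, called 1 (Foxa1). The causes of these differences were not tested.

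Counts of called factors that differed by setting were as follows, each with the number of all genes called, of 21691 tested. With normexp, 1 was called by diet at baseline (Cebpa, 8183 genes) and 1 by diet with agonist (Foxa3, 1904 genes). The agonist average then called 1 (Nr5a2, 827 genes). Median scaling gave 0 for diet at baseline (5640 genes) and 0 for PH on standard diet with or without agonist (1367 and 2544 genes). Quantile normalization gave 0 for both of those PH comparisons (1292 and 3055 genes) and 1 for the PH average (Foxa2, 6673 genes). Without a filter, where 34779 genes were tested, diet with agonist at baseline gave 1 (2771 genes). Both PH comparisons on standard diet gave 0 there (1360 genes with and 3339 genes without agonist). With the mean of probes PH on standard diet gave 0 (3103 genes) and PH on MCD diet with agonist 1 (2168 genes). With only the groups compared, diet with agonist at baseline gave 0 (1248 genes). PH on standard diet gave 0 with agonist (1256 genes) and 0 without it (1061 genes). The deposited table with columns as deposited gave 0 for diet at baseline without (1195 genes) and with agonist (2570 genes). It gave 1 for agonist on standard diet at baseline (Cebpa, 4188 genes). For agonist after PH it gave 1 on standard (Foxa2, 3003 genes) and 1 on MCD diet (Foxa3, 1975 genes). The diet average gave 1 (Nr5a2, 1092 genes) and the agonist average 4 (7125 genes). At the matched arrays the table gave 1 for diet at baseline (Cebpa, 4188 genes) and 0 for diet with agonist at baseline (1618 genes). After PH it gave 1 for diet without agonist (Foxa2, 3003 genes) and 1 with it (Foxa3, 1975 genes). Its agonist average gave 1 (Nr5a2, 1092 genes).

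Leaving out arrays gave 1 to 3 called factors for diet at baseline, 0 to 2 with agonist, 0 to 1 for diet with agonist after PH, 0 to 2 for PH on standard diet, 0 to 1 for PH on standard diet with agonist and on MCD diet with agonist, 0 to 1 for agonist on MCD diet at baseline, 0 to 0 for the others, and 2 to 2 for the PH average. Counts over all genes in these fits are not given here. Values that turned were Hnf4a in the PH average with normexp (0.07), Nr5a2 in the PH average with the mean of probes (-0.28), the second probe of Nr5a2 for agonist on MCD diet at baseline (1.03), PH on MCD diet with agonist (-0.74), the agonist average (0.44) and the PH average (-0.65), and Foxa2 in the table as deposited, for diet at baseline (0.04) and for the diet average (0.025). A fit with replicate number as a block left every count of called factors as it was, 2 for diet at baseline and 4 in the diet average, 2 in the PH average and 0 in the agonist average. The labels do not say that a number pairs arrays, and the correlation of same-numbered arrays' deviations from their group means ran from -0.204 to 0.442, with 0 to 4 of 4 arrays most like their own number. Precision is limited by 4 arrays a group, and on MCD diet the second Onecut1 probe and Hnf4aos lay near background.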
